A study of Mus musculus with 12 samples.

Results

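The natriuretic peptide system of the mouse heart was followed through 6 genes: the peptide genes Nppa and Nppb, the processing protease Corin, and the receptor genes Npr1, Npr2 and Npr3. They were chosen by name and matched to the gene symbols of the array's platform annotation, which gave 11 of the 45281 probes. Of these, 10 probes were kept, having a detection p under 0.05 on 2 or more of the 12 arrays, so that each of the 6 genes was measured among the 15561 features tested. Total RNA from the heart was hybridised to Illumina bead arrays, 1 array for each of 12 samples. The samples formed 6 genotypes of 2 samples each, made by Trex+/+ or Trex-/- combined with STING+/+, STING+/- or STING-/-. All mice were untreated and shared a mixed C57BL6/129Sv background, and the labels give no age, sex or heart chamber and do not describe the mutant alleles. Trex1 encodes a DNA exonuclease, and STING, from the gene Sting1, is an adaptor through which cytosolic DNA induces type I interferon. The comparisons ask how the absence of Trex1 and the dose of STING changed these transcripts.

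Nppa encodes the precursor of atrial natriuretic peptide, stored mainly in atrial cardiomyocytes, and Nppb that of B-type natriuretic peptide; transcripts of both increase in ventricular muscle under haemodynamic load and are used as markers of cardiac stress. Corin is a transmembrane protease of cardiomyocytes that cleaves the atrial precursor to the active hormone. Npr1 and Npr2 encode receptors with guanylate cyclase activity, Npr1 for the atrial and B-type peptides and Npr2 for the C-type peptide, whereas Npr3 encodes the clearance receptor that removes all of them.

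Values are log2 signals after background correction and quantile normalization, each difference is a log2 value ± its standard error (SE) from a single limma model of the 12 arrays, and adjusted p-values are from Benjamini-Hochberg adjustment over all features. The number of arrays limits the precision, and the labels do not say whether paired samples are of different animals, so p-values measure the spread between samples, which may be technical in part. On the 12 arrays, 38.3% to 44.7% of probes were detected. The cardiomyocyte genes Myh6 (13.27 to 15.14) and Myl2 (15.3 to 15.65) were detected on every array, as the label heart implies. The Trex1 probe ILMN_3131766 read 6.53 to 7.34 on the 6 Trex+/+ arrays and 5.38 to 5.68 on 5 of the 6 Trex-/- arrays, but 6.76 on replicate 2 labelled Trex-/- STING+/+, within the Trex+/+ range. On that array 1 probe of Hnrnpa2b1, a widely expressed RNA-binding protein gene, read 5.91 (ILMN_2615855, 8.47 on replicate 1 of Trex+/+ STING+/- and 10.91 to 11.63 on the other 10). A second probe of that gene, ILMN_2771074, read 7.3 there, within the 7.28 to 8.37 of the other arrays. Every direction given for the group labelled Trex-/- STING+/+ takes this array as labelled, and values without it are printed beside the results. On STING-/- arrays Sting1 (ILMN_2736197) had signals of 4.67 to 5.02. It read 5.05 or more on 7 of the 8 other arrays and 4.79, within the STING-/- range, on replicate 1 of Trex+/+ STING+/-. In 7 of 12 samples the STING genotype in the description differs from that in the title, source and genotype labels, which were used here.

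Atrial content differed between arrays. The mean of 8 atrial marker genes was 6.28 to 6.54 on 8 arrays, and was raised on replicate 2 of Trex-/- STING+/- (8.37), on both Trex+/+ STING-/- arrays (11.03 and 11.89) and on replicate 2 of Trex-/- STING-/- (12.03). The atrial myosin light chain gene Myl7 read 4.4 to 5.25 on the 8 arrays and 9.86, 14.24, 14.94 and 15.1 on these 4. The mean of 3 measured adipocyte markers was also higher on the last 3 of them (8.35, 8.9 and 8.41, against 4.54 to 5.2 on the other 9). Xist, expressed in females, was detected on both Trex+/+ STING+/+ arrays, on replicate 2 labelled Trex-/- STING+/+ and on replicate 1 of Trex+/+ STING-/-, and on no other array. Sex and genotype are therefore partly mixed in the comparisons with Trex+/+ STING+/+, and wholly mixed between Trex+/+ STING+/- and Trex+/+ STING+/+. They are also wholly mixed between the group labelled Trex-/- STING+/+ and Trex+/+ STING+/+ once replicate 2 of the former is left out.

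Nppa and Nppb lie beside each other on mouse chromosome 4, and both rose with Trex-/- on STING+/+. Sequence before each start site is shown for that reason; it is RefSeq sequence of build GRCm38.p6, plus strand, with GATAA, a core that GATA factors bind, in capitals on either strand (TTATC on the minus strand). Nppa is shown for the 250 bases before its start site, chr4:148000472-148000721, and Nppb for 30 bases at chr4:147985804-147985833.
Nppa: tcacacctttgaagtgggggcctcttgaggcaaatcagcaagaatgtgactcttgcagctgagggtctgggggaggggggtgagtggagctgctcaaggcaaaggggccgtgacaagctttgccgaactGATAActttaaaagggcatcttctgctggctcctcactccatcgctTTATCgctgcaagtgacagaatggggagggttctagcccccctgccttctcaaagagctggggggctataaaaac
Nppb: ctGATAAatcagaGATAAccccacccctac
In Nppa the matches begin at -121 and -75 from the start site, and in Nppb at -94 and -83. GATAA was found in the 300-base windows of 2 of the 6 genes, these 2, and in 25.4% of all 32851 windows of that length; it was added to the search after the sequences were read. The longer AGATAA was in Nppb only (11.2% of all windows), AAGTG, bound by NKX2-5, in Nppa only (46.4%), and the M-CAT letters CATTCC in Nppb only (14.7%). CANNTG, the E-box, was in 5 of the 6 windows and in 72.3% of all. The interferon-stimulated response element was in none of the 6 (3.44% of all) and the CArG box in none (1.63%). All motifs were searched on both strands, and AGATAA contains GATAA. A match describes letters in this window and not a site in use.

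Nppa was high in every Trex-/- heart and, among Trex+/+ hearts, high only where atrial markers were raised. It read 14.08 and 14.08 in Trex+/+ STING+/+, 12.87 and 12.94 in Trex+/+ STING+/-, and 15.68 and 15.71 in Trex+/+ STING-/-. It read 15.52 and 15.57 in hearts labelled Trex-/- STING+/+, 15.35 and 15.3 in Trex-/- STING+/-, and 15.03 and 15.68 in Trex-/- STING-/-. Thus the 4 Trex+/+ arrays that carried STING lay below the other 8, and those 8 lay within 15.03 to 15.71.

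On STING+/+, Nppa rose by 1.47 ± 0.22 (2.76-fold, adjusted p = 0.00121) in hearts labelled Trex-/-, and by 1.44 ± 0.26 (adjusted p = 0.00606) without replicate 2. On STING+/- it rose by 2.42 ± 0.22 (5.36-fold, adjusted p = 0.000912). On both backgrounds the groups did not overlap, which held for 58% of all features on STING+/+ and 44.8% on STING+/-. Without the 4 arrays of raised atrial signal the differences were 1.47 ± 0.2 and 2.45 ± 0.25. None of those 4 arrays belongs to the STING+/+ comparison, and the STING+/- value then rests on replicate 1 alone of Trex-/- STING+/-. The rise was not shown to differ between STING+/+ and STING+/- (-0.96 ± 0.31, adjusted p = 0.131).

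On STING-/-, Nppa did not rise with Trex-/- (-0.34 ± 0.22, adjusted p = 1, 95% interval -0.83 to 0.15), and the groups overlapped. The Trex effect on STING+/+ exceeded that on STING-/- by 1.81 ± 0.31 (adjusted p = 0.00612), or by 1.78 ± 0.34 without replicate 2 labelled Trex-/- STING+/+ (adjusted p = 0.0129). Both Trex+/+ STING-/- arrays carried raised atrial markers, so a value without such arrays could not be had, and with the atrial mean as a covariate the difference was 1.6 ± 0.28 (adjusted p = 0.0129). Trex+/+ STING-/- exceeded Trex+/+ STING+/+ by 1.61 ± 0.22 (3.06-fold, adjusted p = 0.0409). That call was lost in 14 of 23 alternatives, among them the omission of any 1 Trex+/+ array or Trex-/- STING+/- array (1.59 to 1.63, adjusted p = 0.097 to 0.388), and with the atrial covariate the value was 1.13 ± 0.29 (adjusted p = 1). In these 2 arrays genotype and raised atrial content cannot be told apart. The slope of the atrial covariate comes from differences within replicate pairs. The widest was in Trex-/- STING-/-, with atrial means of 6.34 and 12.03 and Nppa of 15.03 and 15.68. That slope cannot show how much raised atrial content adds to Nppa in Trex+/+ hearts, so neither covariate value removes the mixing.

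Within Trex-/- hearts, Nppa did not pass the threshold between STING doses. Compared with the group labelled Trex-/- STING+/+, STING+/- gave -0.22 ± 0.22 (adjusted p = 0.564, interval -0.71 to 0.26) and STING-/- gave -0.2 ± 0.22 (adjusted p = 0.56, interval -0.68 to 0.29). Replicate 1 of Trex-/- STING-/- had the lowest Myl7 of all arrays, 4.4, and an Nppa signal of 15.03, above the 12.87 to 14.08 of the Trex+/+ arrays that carried STING. Within Trex+/+ hearts, STING+/- lay below STING+/+ by 1.18 on the log2 scale with no overlap (-1.18 ± 0.22, unadjusted p = 0.000307), which did not pass adjustment (adjusted p = 0.596). Groups that do not overlap were found for 36.1% of features in that comparison, in which sex and genotype are wholly mixed.

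The Nppa probe was near the top of the scanner scale in the higher group of arrays. Its raw signal was 12.7% and 13.3% of the brightest probe on the Trex+/+ STING+/- arrays and 31.5% and 31.1% on the Trex+/+ STING+/+ arrays, but 53.4% to 92% on the other 8, with as few as 7 brighter probes. The Nppb probe was at 68.6% and 82.1% of the brightest probe on the arrays labelled Trex-/- STING+/+, and at 6.67% to 25.9% on the other 10. The files flag no saturation. The part of a compressed scale in the small spread of Nppa among those 8 arrays, or in the fold values of either gene, was not tested.

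**Figure D1:**
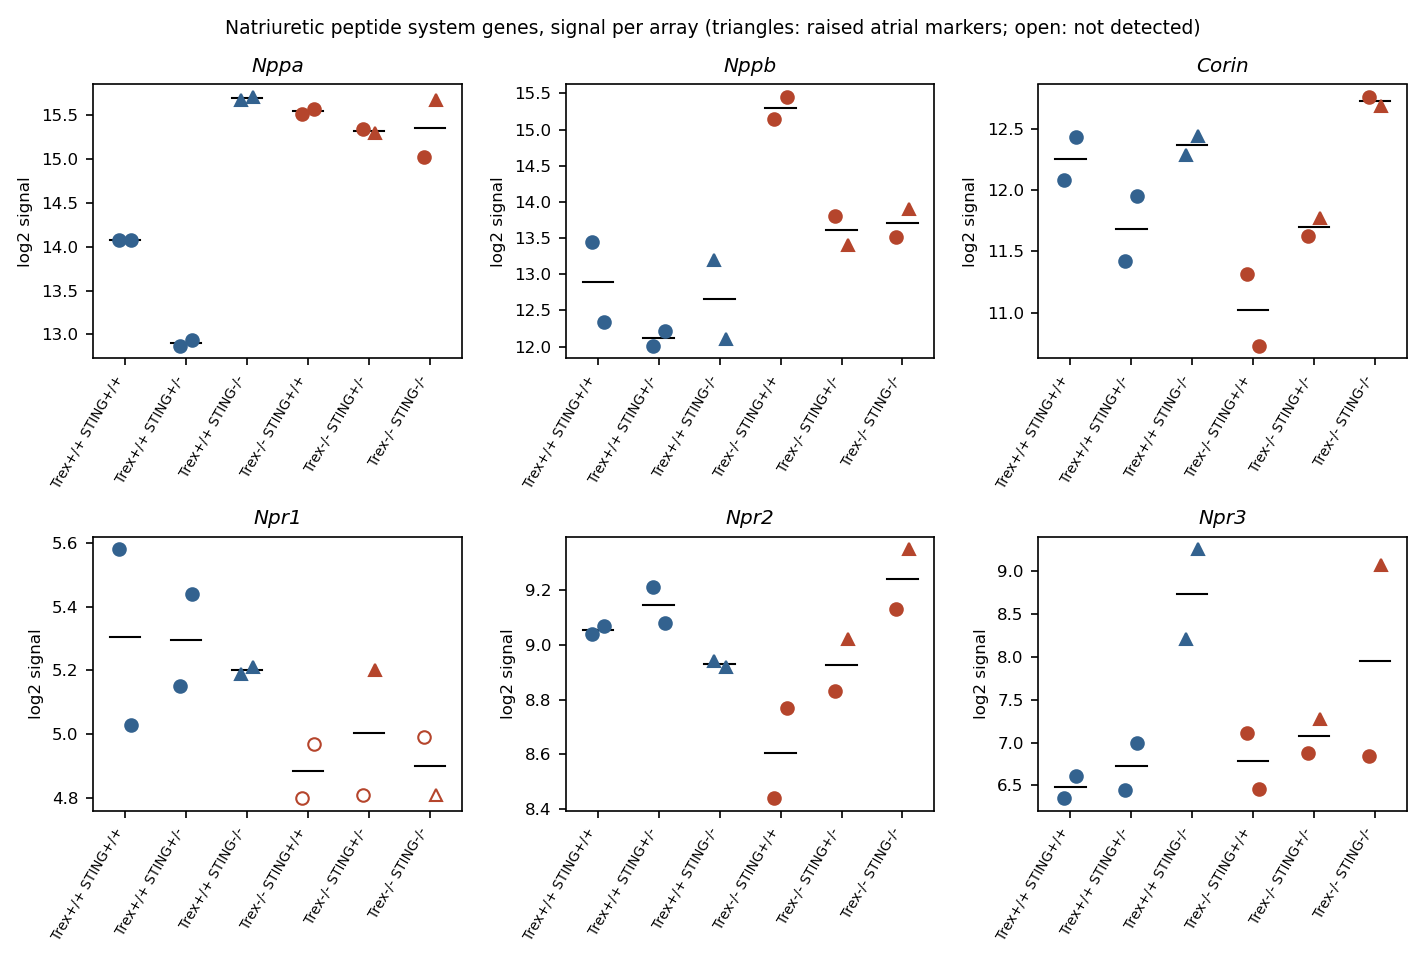
Log2 signal of the 6 genes on each of 12 arrays (vertical axis) by genotype (horizontal axis); each point is 1 array, bars are means of 2 arrays, blue is Trex+/+ and red Trex-/-, triangles are the 4 arrays with raised atrial markers and open symbols arrays on which the probe was not detected. Nppa is at 15.03 or above on all red points and on both blue triangles, Nppb is highest in hearts labelled Trex-/- STING+/+, where Corin and Npr2 are lowest, and Npr3 is highest on 3 of the triangles.

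Nppb also rose with Trex-/- on STING+/+, and within Trex-/- hearts it was lower where STING was reduced. It read 13.44 and 12.34 in Trex+/+ STING+/+, 12.01 and 12.22 in Trex+/+ STING+/-, and 13.2 and 12.11 in Trex+/+ STING-/-. It read 15.14 and 15.45 in hearts labelled Trex-/- STING+/+, 13.8 and 13.41 in Trex-/- STING+/-, and 13.51 and 13.9 in Trex-/- STING-/-. The arrays labelled Trex-/- STING+/+ were above all the others, and the other 4 Trex-/- arrays, at 13.41 to 13.9, lay near or above the highest Trex+/+ array, at 13.44.

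On STING+/+ the rise was 2.41 ± 0.41 (5.31-fold, adjusted p = 0.00258), and 2.25 ± 0.51 without replicate 2 labelled Trex-/- STING+/+ (adjusted p = 0.017). On STING+/- the difference was 1.49 ± 0.41 (adjusted p = 0.153). On STING-/- it was 1.05 ± 0.41 (adjusted p = 1, where 28.3% of all features had groups that did not overlap, as here). Neither differed from the effect on STING+/+ past the threshold: the differences of effects were 0.92 ± 0.58 (adjusted p = 0.404) and 1.36 ± 0.58 (adjusted p = 0.181). On the 2 Trex+/+ STING-/- arrays, with Myl7 of 14.24 and 14.94, Nppb read 13.2 and 12.11, within the 12.01 to 13.44 of the other Trex+/+ arrays.

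Among Trex-/- hearts Nppb fell from STING+/+ to STING+/- by 1.69 on the log2 scale (-1.69 ± 0.41, 3.23-fold, adjusted p = 0.028) and from STING+/+ to STING-/- by 1.59 (-1.59 ± 0.41, 3.02-fold, adjusted p = 0.0194). STING+/- and STING-/- were not shown to differ (0.1 ± 0.41, interval -0.81 to 1.01, adjusted p = 0.984). Both calls rested on the samples chosen: without replicate 2 labelled Trex-/- STING+/+ they were -1.54 ± 0.51 (adjusted p = 0.119) and -1.44 ± 0.51 (adjusted p = 0.0895), and with sex as a covariate -1.34 ± 0.4 and -1.24 ± 0.4 (adjusted p = 0.0918 and 0.0668). The first was also lost without replicate 1 or 2 of Trex-/- STING+/- (adjusted p = 0.0678 and 0.182), and the second without replicate 1 of Trex-/- STING-/- (-1.4, adjusted p = 0.115). Averaged over the 3 STING states, the Trex-/- difference was 1.18 ± 0.13 for Nppa (adjusted p = 0.000378) and 1.65 ± 0.24 for Nppb (adjusted p = 0.00181). The Nppa average includes -0.34 on STING-/-, where Nppa did not rise and both Trex+/+ arrays carried raised atrial markers.

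Corin moved opposite to its substrate's transcript on STING+/+ and was highest in Trex-/- STING-/- hearts. It read 12.08 and 12.43 in Trex+/+ STING+/+, 11.42 and 11.95 in Trex+/+ STING+/-, and 12.29 and 12.44 in Trex+/+ STING-/-. It read 11.32 and 10.73 in hearts labelled Trex-/- STING+/+, 11.63 and 11.77 in Trex-/- STING+/-, and 12.76 and 12.69 in Trex-/- STING-/-. The 2 arrays labelled Trex-/- STING+/+ were the lowest of the 12 and the 2 Trex-/- STING-/- arrays the highest.

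On STING+/+, Corin fell by 1.22 on the log2 scale (-1.22 ± 0.26, 2.33-fold lower, adjusted p = 0.00764). The value was -0.93 ± 0.26 without replicate 2 labelled Trex-/- STING+/+ (adjusted p = 0.0411), and the call was lost without replicate 2 of Trex+/+ STING+/+ (-1.05 ± 0.32, adjusted p = 0.0693) and in a fit of only the groups compared (adjusted p = 0.0745). The difference was 0.02 ± 0.26 for STING+/- (adjusted p = 0.99) and 0.37 ± 0.26 for STING-/- (adjusted p = 1). The effect on STING+/+ lay below that on STING-/- by 1.59 (-1.59 ± 0.36, adjusted p = 0.0233). This call was lost with the atrial covariate (-1.58 ± 0.41, adjusted p = 0.0558) and without any 1 of 5 arrays (-1.66 to -1.41, adjusted p = 0.0503 to 0.093). The 5 were replicate 2 of Trex+/+ STING+/+ and all 4 STING-/- arrays.

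Among Trex-/- hearts, Corin was 3.25-fold higher in STING-/- than in STING+/+ (1.7 ± 0.26, adjusted p = 0.00125), and this call held under all 24 alternatives (1.4 to 1.99, adjusted p = 0.000429 to 0.0411). STING+/- lay between them at 0.67 ± 0.26 above STING+/+ (adjusted p = 0.125). STING-/- exceeded STING+/- by 1.03 ± 0.26 (adjusted p = 0.104), and passed without either array labelled Trex-/- STING+/+ (adjusted p = 0.0496 each). On the 2 arrays labelled Trex-/- STING+/+ the mean of 6 measured cardiomyocyte markers was also lower, 12.77 and 12.7 against 13.4 to 13.85 on the other 10. With Trex-/- on STING+/+, 5 of these 6 markers fell (9.93% of all features fell). The mean of 5 ventricular cardiomyocyte markers was 10.25 and 10.47 there (10.72 and 10.56 in Trex+/+ STING+/+), and 0 of these 5 passed. In bulk tissue, fewer cardiomyocytes and less RNA per cardiomyocyte cannot be told apart, and the part of either in the Corin value was not tested. On the same 2 arrays the mean of 4 macrophage markers was 10.21 and 9.17 (7.84 and 8.21 in Trex+/+ STING+/+), and the mean of 5 interferon-stimulated genes 13.21 and 12.55 (6.99 and 7.99). The mean of 5 stress genes of cardiac muscle was 12.75 and 11.91 (10.26 and 10.31), and 3 of the 5 rose past the threshold (11.8% of all features rose). The stress genes did not all move alike: Myh7 read 7.77 and 4.74 (7.05 and 6.74), so it was lower on replicate 2.

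The receptor genes moved less. Npr1, the receptor for both cardiac peptides, read 4.8 to 5.58 and was near background. It was detected on all 6 Trex+/+ arrays and on 1 of the 6 Trex-/- arrays, replicate 2 of STING+/-. Several detection p-values lay close to the cut of 0.05. They were 0.00855 to 0.0481 on Trex+/+ arrays and 0.0256 to 0.0758 on Trex-/- arrays, so the count of arrays is no measure of a difference. On STING+/+ it was not well above background on either array labelled Trex-/- and at least 1.3-fold higher in Trex+/+, with a measured difference of -0.42 ± 0.24 (4.89 against 5.31, adjusted p = 0.239). Averaged over the STING states the difference was -0.34 ± 0.14 (adjusted p = 0.167), and at this signal no change in Npr1 could be called.

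Npr2 read 9.04 and 9.07 in Trex+/+ STING+/+, 9.21 and 9.08 in Trex+/+ STING+/-, and 8.94 and 8.92 in Trex+/+ STING-/-. It read 8.44 and 8.77 in hearts labelled Trex-/- STING+/+, 8.83 and 9.02 in Trex-/- STING+/-, and 9.13 and 9.35 in Trex-/- STING-/-. As for Corin, the arrays labelled Trex-/- STING+/+ were the lowest, but the span of all 12 was only 0.91. The Trex effect was -0.45 ± 0.19 on STING+/+ (adjusted p = 0.124). Within Trex-/- hearts STING-/- exceeded STING+/+ by 0.63 ± 0.19 (1.55-fold, adjusted p = 0.0392), a call lost in 15 of 24 alternatives, among them the atrial covariate (0.5 ± 0.24, adjusted p = 0.182) and the omission of any 1 array other than replicate 2 labelled Trex-/- STING+/+ (0.46 to 0.74, adjusted p = 0.0511 to 0.19).

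Npr3, the clearance receptor, was high on 3 of the 4 arrays with raised atrial markers. Its brightest probe, ILMN_3127391, read 6.35 and 6.61 in Trex+/+ STING+/+, 6.45 and 7 in Trex+/+ STING+/-, and 8.21 and 9.26 in Trex+/+ STING-/-. It read 7.11 and 6.46 in hearts labelled Trex-/- STING+/+, 6.88 and 7.27 in Trex-/- STING+/-, and 6.84 and 9.07 in Trex-/- STING-/-. The 3 high arrays were those with Myl7 above 14, and the 2 replicates of Trex-/- STING-/- stood on opposite sides.

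Npr3 had 6 probes, of which 5 were kept, and each of the 5 was highest on these same 3 arrays. On them ILMN_2496537 read 7.09, 8.33 and 8.46, ILMN_2604333 6.52, 7.7 and 7.49, ILMN_1236914 6.38, 7.51 and 7.73, and ILMN_1231426 5.87, 6.57 and 6.48. The sixth probe, ILMN_2568364, was detected on 0 arrays and gave no measure of the gene. In Trex+/+ hearts STING-/- exceeded STING+/+ by 2.26 ± 0.61 (4.79-fold), which did not pass adjustment (adjusted p = 0.276), and by 0.36 ± 0.52 with the atrial covariate. In Trex-/- hearts the same difference was 1.17 ± 0.61 (adjusted p = 0.201) and 0.05 ± 0.39 without the arrays of raised atrial signal. Replicate 1 of Trex-/- STING-/- was the only STING-/- array without raised atrial markers. Without it the difference in Trex-/- hearts was 2.28 and rested on replicate 2 alone, with Myl7 of 15.1. The difference in Trex+/+ hearts uses neither replicate of Trex-/- STING-/-. It stayed at 2.26 when either was left out, and only its SE changed, from 0.61 to 0.38. Npr3 and Myl7 had Pearson's r of 0.935 over all 12 arrays and of -0.496 over the 8 arrays without raised atrial signal. On those 8 arrays Myl7 was near background, at 4.4 to 5.25, where the lowest detected signals were 4.83 to 5.13. Both values of r are given as a description of arrays that share 1 normalization.

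**Figure D2:**
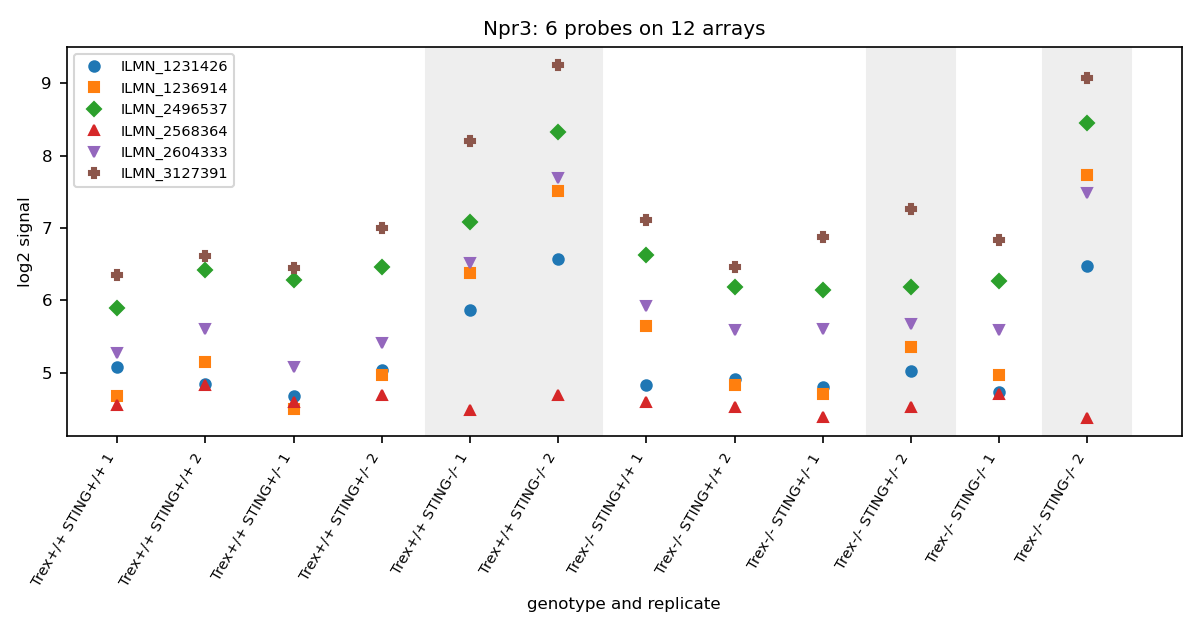
Log2 signal of the 6 Npr3 probes (vertical axis) on the 12 arrays (horizontal axis, genotype and replicate); each symbol is 1 probe and grey bands mark the 4 arrays with raised atrial markers. The 5 kept probes are highest on 3 of the 4 banded arrays, and ILMN_2568364 stays between 4.37 and 4.83.

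**Figure D3:**
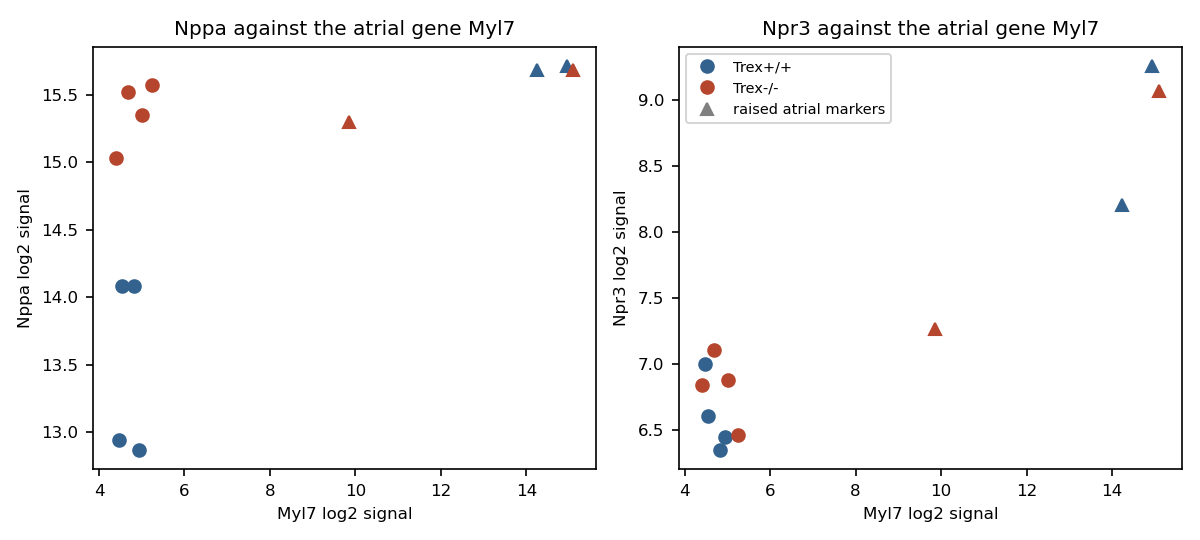
Log2 signal of Nppa (left) and Npr3 (right) on the vertical axes against the atrial gene Myl7 on the horizontal axes, 1 point per array; blue is Trex+/+, red Trex-/-, and triangles are the 4 arrays with raised atrial markers. At Myl7 of 4.4 to 5.25, Nppa reads 12.87 to 14.08 in Trex+/+ and 15.03 to 15.57 in Trex-/-, whereas Npr3 reads 6.35 to 7.11 in both.

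Counted over the 6 genes, Trex-/- against Trex+/+ on STING+/+ passed the threshold for 2 higher (Nppa and Nppb) and 1 lower (Corin), where 21.7% of all features passed, 11.8% higher and 9.93% lower. On STING+/- it passed for Nppa alone, where 1.27% of features did, and Nppb had an unadjusted p under 0.05. On STING-/- none of the 6 passed in limma, 1 (Nppb) had an unadjusted p under 0.05, and 0.0129% of all features passed; every alternative that gave a value also gave 0. In Trex-/- hearts, 1 of 6 passed for STING+/- against STING+/+ (11% of features). For STING-/- against STING+/+ 2 were higher and 1 lower (24% of features, 11.3% higher and 12.7% lower). For STING-/- against STING+/- none passed (1.36% of features; Corin had an unadjusted p under 0.05). Within Trex+/+ hearts none passed for STING+/- against STING+/+ (0.0129%; Nppa had an unadjusted p under 0.05), and Nppa alone passed for STING-/- against STING+/+ (0.0578%). The difference of the Trex effects passed for 0 genes against STING+/- (1.92%; Nppa and Corin had an unadjusted p under 0.05) and for Nppa and Corin against STING-/- (9.87%). Averaged over STING states 2 of 6 passed, Nppa and Nppb, both higher (10.2% of features in either direction). Further results had an unadjusted p under 0.05 in limma without passing. These were Npr2 for Trex-/- on STING+/+, and Npr2 and Nppb for the difference of effects against STING-/-. The rest were Corin for STING+/- against STING+/+ in Trex-/- hearts, Npr3 for STING-/- against STING+/+ in Trex+/+ hearts, and Npr1 for the average. The median difference of the 6 genes on STING+/+ was -0.05, beside -0.04 for all features, since their changes ran both ways. Several comparisons share the arrays labelled Trex-/- STING+/+ or the Trex+/+ STING+/+ arrays, so their calls are not independent.

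**Figure D4:**
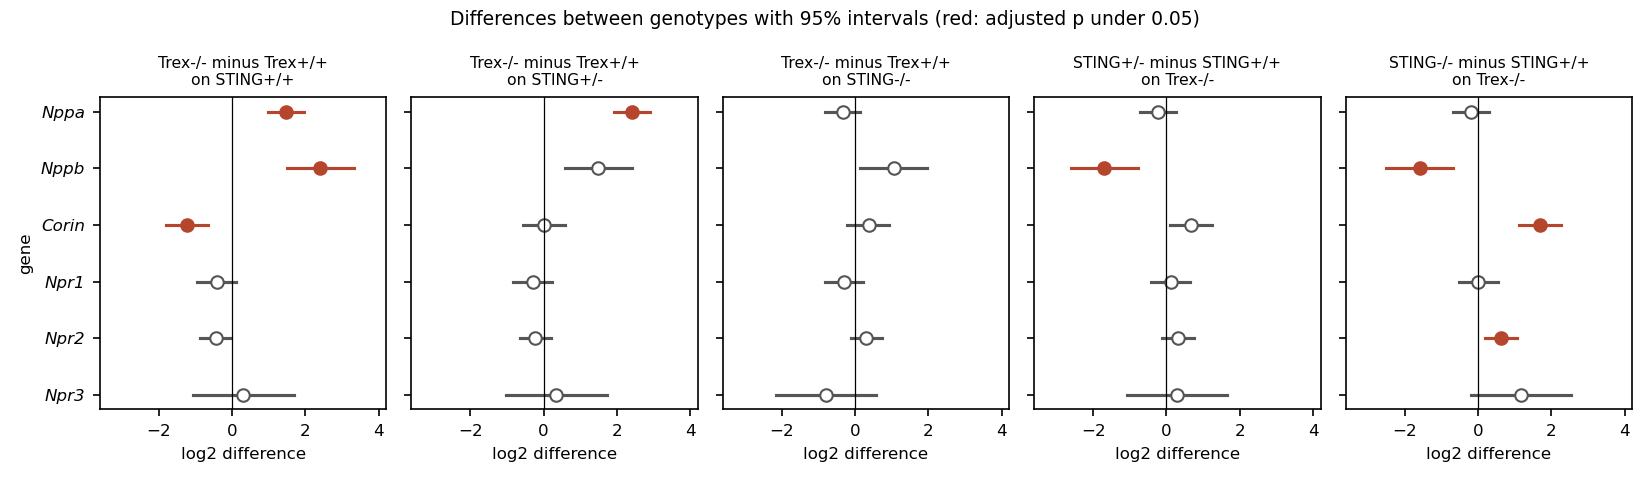
Log2 differences (horizontal axis) of the 6 genes (vertical axis) with 95% intervals from limma, in 5 comparisons; red filled points passed adjusted p under 0.05. On STING+/+ Nppa and Nppb are to the right of 0 and Corin to the left, on STING-/- no gene passes, and within Trex-/- hearts STING-/- lies to the left for Nppb and to the right for Corin and Npr2.

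None of the other pathway genes measured rose with Trex-/- where the peptides did. Of 29 further genes of peptide processing, breakdown, cyclic GMP signalling and peptide gene transcription, 25 were measured. On STING+/+, 0 rose and 5 fell with Trex-/- (11.8% of all features rose and 9.93% fell), and the median difference was -0.39, beside -0.04 for all features. On STING+/- and on STING-/- 0 of 25 passed. The 5 are described in order of their roles, from processing to transcription.

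Pcsk6 encodes a proprotein convertase that activates corin. It read 9.84 and 10.29 in Trex+/+ STING+/+, 7.44 and 7.94 in hearts labelled Trex-/- STING+/+, 9.6 and 9.42 in Trex-/- STING+/-, 10.06 and 9.89 in Trex-/- STING-/-, and 9.81 to 10.15 on the other 4 Trex+/+ arrays. Only the 2 arrays labelled Trex-/- STING+/+ were low. Pcsk6 fell by 2.38 (-2.38 ± 0.24, adjusted p = 0.000134) on STING+/+ and by 2.63 without replicate 2 of that group (-2.63 ± 0.25, adjusted p = 0.000309), and the call held under all 24 alternatives. The fall exceeded the effect on STING+/- by 1.96 (-1.96 ± 0.34, adjusted p = 0.0251). That call was lost in 9 of 24 alternatives (adjusted p = 0.00983 to 0.273 over all 24), with the highest without the arrays of raised atrial signal. The fall exceeded the effect on STING-/- by 2.31 (-2.31 ± 0.34, adjusted p = 0.003). Furin, a convertase that cleaves the B-type precursor, gave -0.39 ± 0.19 on STING+/+ (adjusted p = 0.171).

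Mme encodes neprilysin, a protease that degrades natriuretic peptides. It read 6.56 and 5.92 in Trex+/+ STING+/+ and 5.69 to 6.82 on the 8 arrays of other genotypes. It was not well above background on either array labelled Trex-/- STING+/+ (4.57 and 4.37), and was at least 2.5-fold higher in Trex+/+ STING+/+ (adjusted p = 0.0025). In Trex-/- hearts it was at least 1.87-fold higher in STING+/- (adjusted p = 0.0197) and at least 3.23-fold higher in STING-/- (adjusted p = 0.000804) than in STING+/+. The first of these was lost without replicate 2 labelled Trex-/- STING+/+ (adjusted p = 0.0821).

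Among the genes of cyclic GMP signalling, Gucy1b1, a subunit of the nitric oxide-activated guanylate cyclase, fell from 7.43 and 6.92 to 6.3 and 5.89 on STING+/+ (-1.08 ± 0.26, adjusted p = 0.0143). Pde3a, a phosphodiesterase inhibited by cyclic GMP, fell from 6.66 and 6.48 to 5.27 and 4.5 (-1.68 ± 0.44, adjusted p = 0.0217). On 1 of the 2 arrays labelled Trex-/- STING+/+ Pde3a was not detected. Neither call held without replicate 2 labelled Trex-/- STING+/+ (adjusted p = 0.0738 and 0.122). Gata6, a transcription factor of cardiac muscle, fell from 11.5 and 11.4 to 9.98 and 10.3 (-1.31 ± 0.28, adjusted p = 0.00868), and still passed without that array (-1.47 ± 0.34, adjusted p = 0.0173). Gata4 (0.09 ± 0.41, adjusted p = 0.906) and Nkx2-5 (-0.18 ± 0.19, adjusted p = 0.541) did not pass.

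In Trex-/- hearts, 8 of the 25 pathway genes rose and 0 fell from STING+/+ to STING-/- (11.3% of all features rose). They were Tbx5 (2.24 ± 0.38), Pcsk6 (2.29 ± 0.24), Mme, Pde3a (1.99 ± 0.44), Gata6 (1.58 ± 0.28), Gucy1a1 (1.38 ± 0.43), Ide (0.84 ± 0.21) and Pde1a (0.56 ± 0.18). Without the arrays of raised atrial signal the count was 3 and without replicate 2 labelled Trex-/- STING+/+ it was 5. From STING+/+ to STING+/-, where 11% of all features passed in either direction, 2 rose, Pcsk6 (1.82 ± 0.24, adjusted p = 0.00239) and Mme. That count was 0 without the arrays of raised atrial signal and 1 without replicate 2 labelled Trex-/- STING+/+.

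The genes on either side of the Nppb and Nppa pair did not rise with it. Of the 4 nearest annotated protein-coding genes on each side, 6 were measured. On STING+/+, where 9.93% of all features fell, 0 rose and 2 fell, Mfn2, which encodes mitofusin-2, by 0.88 (-0.88 ± 0.24, adjusted p = 0.0237) and Fv1 by 1.12 (-1.12 ± 0.3, adjusted p = 0.023). Neither passed without replicate 2 labelled Trex-/- STING+/+ (adjusted p = 0.108 and 0.0705). Without the arrays of raised atrial signal 0 of the 6 passed either. On STING+/- and STING-/- 0 of the 6 passed.

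The genes most like each member, by Pearson's r of log2 signal over the same 12 arrays, are listed as a description; all points share 1 normalization and 6 genotypes. For Nppa they were P3h3 (r = 0.965), Prdx4 (0.881) and Rasa3 (0.874), and over the 8 arrays without raised atrial signal Cfl1 (0.985), P3h3 (0.975) and Rasa3 (0.932). For Nppb they were Tnfrsf12a (0.93), Rnf145 (0.922) and H2-Ob (0.92). Nppa and Nppb themselves had r = 0.598 over the 12 arrays and 0.889 over the 8. For Corin they were Zfp644 (0.955), Dsg2 (0.947), the desmosomal cadherin gene of cardiac muscle, and Cdkn1b (0.946). For Npr2 they were Kcnj12 (0.964), which encodes an inward rectifier potassium channel, Prodh (0.934) and Tcaim (0.924). For Npr3, whose values fell into a high and a low cluster of arrays, they were Igfbpl1 (0.965), Cd9 (0.962) and Cracd (0.96). For Npr1, near background, they were Eif2s2 (0.85), Atp10d (0.846) and Gm9958 (0.842).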

How the data were processed

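Heart RNA of 12 samples was hybridised to Illumina bead arrays as biotin-labelled cRNA, per the labels' protocols. The authors deposited non-normalized intensity values per probe and array, with a score per value headed as a detection p-value, and processed log2 values. The score rose with the signal (rank correlation 0.979 to 0.988), so 1 minus the score was used as the detection p. The deposited log2 values matched quantile-normalized, probe-centred signals (correlation at least 0.99991 for each of 12 arrays, which also checked the match of columns to samples); of the authors' scanner and software the sources used here give no name.

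Signals were background-corrected and normalized with neqc (offset 16) in R 4.3.3 with limma 3.58.1. Probes with detection p under 0.05 on at least 2 arrays were kept (22810 probes), and the brightest probe stood for each gene (15561 features). The platform annotation gave 34885 probes 1 symbol, 18 several and 10378 none; names were updated through the Entrez IDs of the GRCm38.p6 gene table, which held 34807. Groups came from the title, source and genotype labels. A linear model of the 12 arrays was fitted with lmFit and eBayes, leaving 6 residual degrees of freedom, and 11 contrasts were tested at an adjusted p of 0.05. A probe detected on 0 arrays of a group has a bound: the brighter group's mean against the dim group's, each dim array set to its lowest detected signal or to the probe's signal if that was higher. Such a bound is on the measured means and takes no account of the spread between arrays. Every member and every probe of Npr3 is named. So are the pathway and neighbour genes past the threshold on STING+/+ or STING+/-, and the 3 features most like each member. The other genes named were chosen after their values were seen. The members and gene lists were chosen with earlier results of these data known. The fit was tested on simulated data. The alternatives were other normalizations and filters, array weights, a variance trend, other probes, fits of only the groups compared, sex or atrial covariates, and leaving out arrays.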

Additional observations from a re-analysis of the deposited data

Results flagged for a closer look

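For 2 genes the effect of Trex-/- differed between STING+/+ and STING-/- by the test of the difference itself. For Nppa the difference of effects was 1.81 ± 0.31 (adjusted p = 0.00612), from a rise of 1.47 on STING+/+ and -0.34 on STING-/-, where both Trex+/+ arrays carried raised atrial markers. For Corin it was -1.59 ± 0.36 (adjusted p = 0.0233), from a fall by 1.22 on STING+/+ and 0.37 on STING-/-.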

How the results depend on the processing

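Over all alternatives, 1543 member results were recomputed: 1483 kept their side of the threshold, 52 lost it and 8 gained it. Of the 1483, 59 changed sign, all of them values not past the threshold, and 0 called values changed sign. Counts of members past the threshold changed as follows. For Trex-/- on STING+/+ the count of 3 became 2 in 2 alternatives, without Corin. For STING+/- against STING+/+ in Trex-/- hearts the count of 1 became 0 with no filter, array weights, only the groups compared, the sex covariate and without the arrays of raised atrial signal, and 0 to 2 when 1 array was left out. For STING-/- against STING+/+ in Trex-/- hearts the count of 3 became 1 with array weights, the atrial covariate and without the arrays of raised atrial signal, and 2 in 15 others. Of these, Npr2 was lost in 11, Nppb in 3, and in 1 (without replicate 1 of Trex-/- STING-/-) both were lost and Npr3 gained. For STING-/- against STING+/- the count of 0 became 1 with array weights, and 0 to 1 when 1 array was left out. For STING-/- against STING+/+ in Trex+/+ hearts the count of 1 became 0 with no filter, the stricter filter (a detection p below 0.01 on 4 or more arrays), the probe of largest variance, all probes kept, and the sex and atrial covariates, and 0 to 2 when 1 array was left out. The difference of the Trex effects gave 0 to 1 against STING+/- when 1 array was left out, and against STING-/- 1 with the atrial covariate and 1 to 2 when 1 array was left out. No paired analysis was possible because the labels give no sample number shared between groups.

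The number of features past the threshold varied more. Against 3378 for Trex-/- on STING+/+ it ran from 1418 to 5168, against 197 on STING+/- from 52 to 318, and against 2 on STING-/- from 0 to 44. Within Trex-/- hearts it ran from 6 to 4102 (1713) for STING+/-, from 1288 to 5456 (3727) for STING-/- against STING+/+, and from 65 to 384 (211) between STING-/- and STING+/-. In Trex+/+ hearts it ran from 0 to 16 (2) for STING+/- and from 2 to 166 (9) for STING-/-. For the differences of effects it ran from 1 to 3027 (299) and from 651 to 3392 (1536), and for the average from 948 to 2616 (1584). The highest counts in 7 of these came without replicate 1 labelled Trex-/- STING+/+. The cause of these changes was not tested. The stricter filter left out Npr1, whose signal near background limits any call. Leaving out the arrays of raised atrial signal removed every Trex+/+ STING-/- array, so contrasts with that group have no value there.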
